A study of Mus musculus with 6 samples.

Results

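The RNA-seq libraries described here came from 3 colon tumors of Tmem173fl/fl mice and 3 of Tmem173iΔmye mice. The account covers 38 endothelial and angiogenesis genes, picked by name out of 54532 listed genes. In both groups tumors were induced with the carcinogen azoxymethane (AOM) and 3 cycles of dextran sulfate sodium (DSS), and both groups were given tamoxifen after these cycles, once tumors had formed (AOM+DSS-L). Both groups carry Tmem173, the gene encoding STING, flanked by loxP sites. The labels call the Tmem173fl/fl tumors WT, although these mice are floxed and not wild type. The Tmem173iΔmye tumors, labelled CRE, also carry a tamoxifen-dependent Cre under the promoter of Lyz2, written Lzym-Creert2 in the series' design text, so that deletion is aimed at macrophages, monocytes and neutrophils and not at vessel cells. The control mice carry no Cre, so an effect of the deletion and an effect of active Cre cannot be told apart. The labels give no age and do not say whether a tumor sample pools several nodules.

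The tumors had 15329810 to 16533732 reads assigned to genes. A total of 16426 genes had a mean of at least 0.5 FPKM (reads scaled to gene length and library total) and were tested with edgeR's quasi-likelihood test, in which no gene (0%) had an adjusted p under 0.05 and 1008 (6.14%) had an unadjusted p under 0.05. A change of 1 or more on the log2 scale in either direction together with a p of at most 0.05 was found for 2.12% of genes, Apln and Sox18 among them. Counts of Tmem173 itself were 1748, 2911 and 1705 in controls and 2291, 2245 and 1953 in Tmem173iΔmye tumors, so the target gene in whole tumor RNA did not separate the genotypes. Y-linked genes had reads in 1 control (replicate 1) and in 2 Tmem173iΔmye tumors (replicates 1 and 2), with at most 2 reads elsewhere, so sex was unevenly spread over the groups.

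Endothelial cells line blood and lymphatic vessels and are recognised by junction proteins such as PECAM1 and VE-cadherin. Growing vessels are led by tip cells that respond to VEGF-A through the receptor encoded by Kdr, while Dll4 on tip cells signals to Notch receptors on their neighbours and limits sprouting. Angiopoietins act through the Tie2 receptor encoded by Tek and tune vessel stability, and apelin acts on its receptor in sprouting and hypoxic vessels. Inflamed venules display selectins and adhesion molecules through which leukocytes leave the blood.

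All 38 genes had reads, and 36 passed the filter on low values, while Angpt1 and Sele did not. Of these 36, 3 had an unadjusted p under 0.05 (Apln, Sox18 and Pecam1), each with a higher mean in Tmem173iΔmye tumors, against 6.14% of all genes tested in either direction, 3.23% higher and 2.9% lower. None (0 of 36) had an adjusted p under 0.05 with edgeR, nor with DESeq2, which called 27 genes in all (0.164%). DESeq2 gave the same 3 members an unadjusted p under 0.05, against 6.65% of all genes. The log2 fold change, Tmem173iΔmye over Tmem173fl/fl throughout, was above 0 for 26 members and below 0 for 10, and its median was 0.25, where 49.4% of all genes were above 0 and their median was -0.0042. In 6 of the 36 (Pecam1, Esam, Eng, Erg, Apln and Aplnr) every Tmem173iΔmye tumor was above every Tmem173fl/fl tumor and in 0 the reverse, against 6.03% and 6.47% of all genes. In bulk tumor RNA, a different number of vessel cells and a different amount of RNA per vessel cell cannot be told apart, whether a level is higher or lower.

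**Figure D1:**
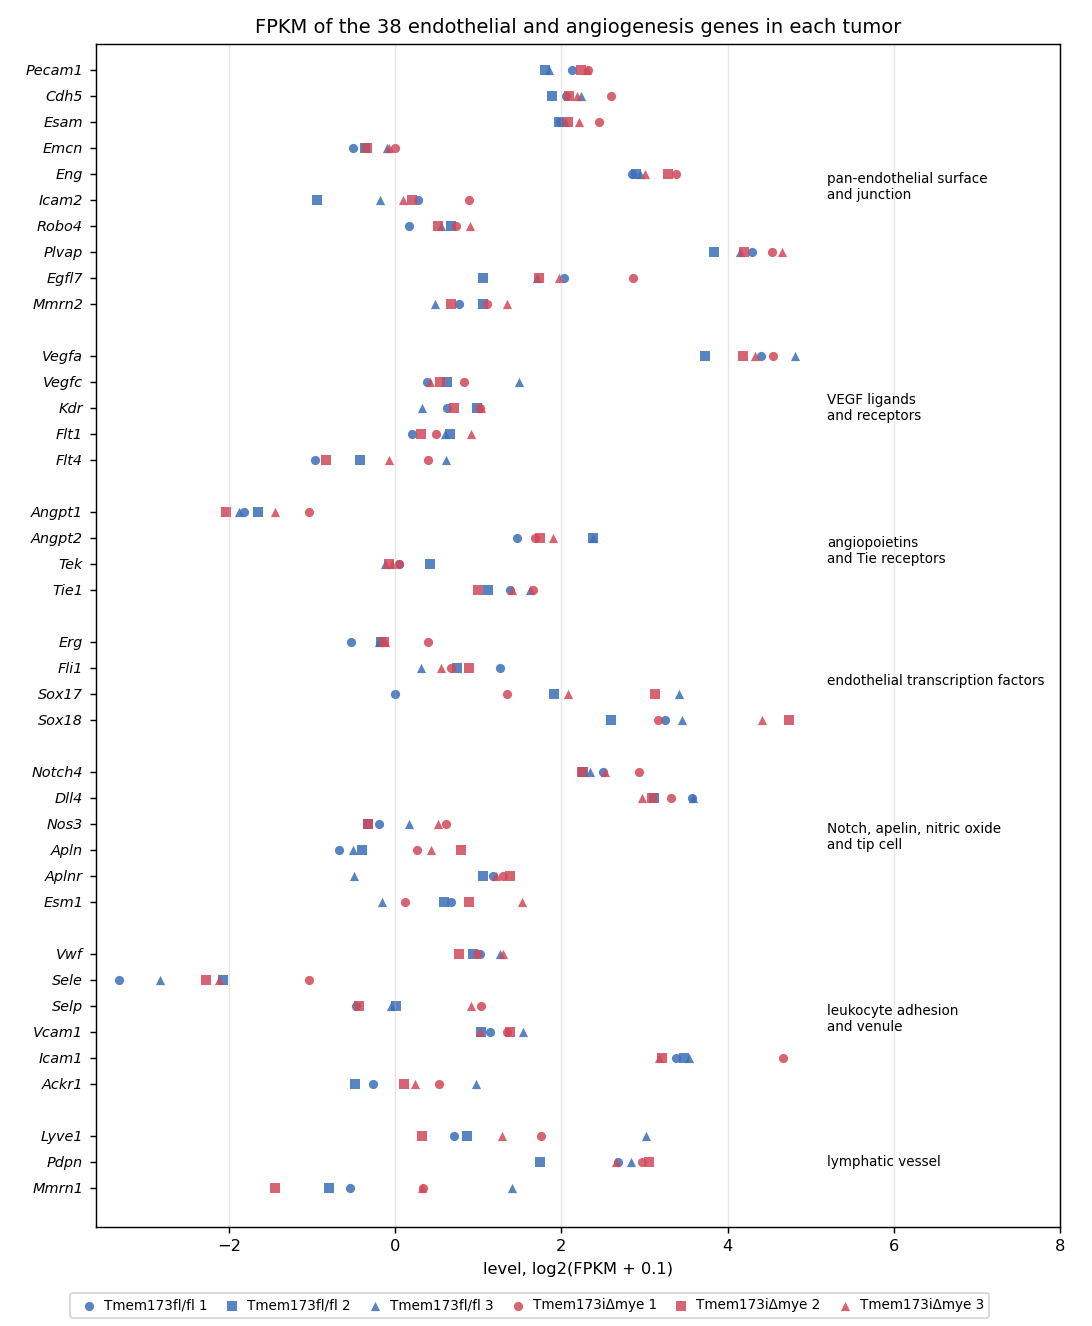
Level of each of the 38 genes as log2(FPKM + 0.1) on the horizontal axis, a scale per gene length on which genes can be compared. Each point is a tumor, blue for Tmem173fl/fl and red for Tmem173iΔmye, with a circle, square or triangle for replicates 1, 2 and 3; Vegfa and Plvap lie highest and Sele lowest, and the spread between tumors is widest for Sox17, Lyve1 and Mmrn1.

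The highest mean levels per gene length were those of Vegfa at 20.6 FPKM, Plvap at 19.6 FPKM and Sox18 at 13.8 FPKM, and the lowest were those of Sele at 0.134, Angpt1 at 0.229 and Emcn at 0.761 FPKM. Vegfa is also produced by epithelial and myeloid cells, and its level in a tumor is not that of vessel cells alone. For comparison, the epithelial gene Epcam had 958 FPKM, while the general endothelial genes Pecam1 and Cdh5 had 4.26 and 4.47 FPKM and were found in every tumor.

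Genes of the endothelial surface and its junctions were on the higher side in Tmem173iΔmye tumors. All 10 of this group (Pecam1, Cdh5, Esam, Emcn, Eng, Icam2, Robo4, Plvap, Egfl7 and Mmrn2) had a log2 fold change above 0, from 0.20 for Emcn to 0.69 for Icam2, with a median of 0.31, and 1 of the 10, Pecam1, had an unadjusted p under 0.05. Their summed level was 156, 132 and 149 CPM (counts scaled to the library total after TMM normalization) in Tmem173fl/fl replicates 1, 2 and 3 and 210, 165 and 184 CPM in those of Tmem173iΔmye, without overlap. Tmem173iΔmye replicate 1 was the highest tumor for 7 of the 10 genes, and Tmem173fl/fl replicate 2 the lowest for 6. Leaving out that highest tumor, all 10 remained above 0 with a median of 0.25. Lying mostly above 0 was not particular to this group. Of 10 epithelial genes 9 were above 0 and of 8 fibroblast genes 7, against 1 of 7 smooth muscle genes.

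Pecam1 encodes the junction protein CD31 and is annotated at 106654217 to 106750628 on chromosome 11 (GRCm38, minus strand). It had 27.0, 21.0 and 21.9 CPM in the Tmem173fl/fl tumors and 30.7, 29.0 and 30.4 CPM in the Tmem173iΔmye tumors. The 3 Tmem173iΔmye tumors lay close together and above the other group. The means were 23.3 ± 3.26 (SD, n = 3) and 30.0 ± 0.868 (SD, n = 3), a log2 fold change of 0.36 (edgeR, SE 0.16 and adjusted p = 0.742). Pecam1 passed an unadjusted 0.05 in 7 of 16 other ways of fitting, and with a term for Y-linked reads its log2 fold change was 0.32 and did not pass. Platelets and leukocytes also carry CD31.

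Eng, a TGF-beta family co-receptor of proliferating endothelium, had 29.1, 29.7 and 31.0 CPM in Tmem173fl/fl and 41.8, 39.2 and 32.3 CPM in Tmem173iΔmye tumors. The groups did not overlap, although Tmem173iΔmye replicate 3 lay near the controls, and the log2 fold change was 0.33 (edgeR, SE 0.15 and adjusted p = 0.742). Esam, an adhesion molecule of tight junctions, had 11.2, 10.9 and 11.6 CPM against 15.5, 11.9 and 13.1 CPM, a log2 fold change of 0.26 (edgeR, SE 0.18 and adjusted p = 0.757). Here too the groups were apart, with 11.6 and 11.9 CPM as the nearest values.

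Cdh5 encodes VE-cadherin, the adhesive core of endothelial junctions. Its values of 17.3, 15.1 and 19.5 CPM in Tmem173fl/fl and 25.1, 17.6 and 18.8 CPM in Tmem173iΔmye tumors overlapped. Plvap, which forms the diaphragms of fenestrated capillaries, had 39.3, 28.1 and 35.2 CPM against 46.1, 36.7 and 50.2 CPM, with a log2 fold change of 0.37 (edgeR, SE 0.18 and adjusted p = 0.742). Egfl7, a secreted matrix protein of vessels, had 14.6, 7.07 and 11.4 CPM against 25.8, 11.6 and 13.8 CPM. The single high value of Egfl7 was that of Tmem173iΔmye replicate 1, and without this tumor the log2 fold change went from 0.63 to 0.20. The remaining genes of the group (Emcn, Icam2, Robo4 and Mmrn2) overlapped between the groups.

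A longer list of endothelial genes was nearer to 0, a difference that was not tested. Of 22 others, 20 were tested, 13 had a log2 fold change above 0, the median was 0.084 and 1 had an unadjusted p under 0.05, Sox7. Without Tmem173iΔmye replicate 1 their median was -0.016. The summed level of the 22 genes was 316 to 342 CPM in Tmem173fl/fl and 326 to 369 CPM in Tmem173iΔmye tumors, and so overlapped.

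**Figure D2:**
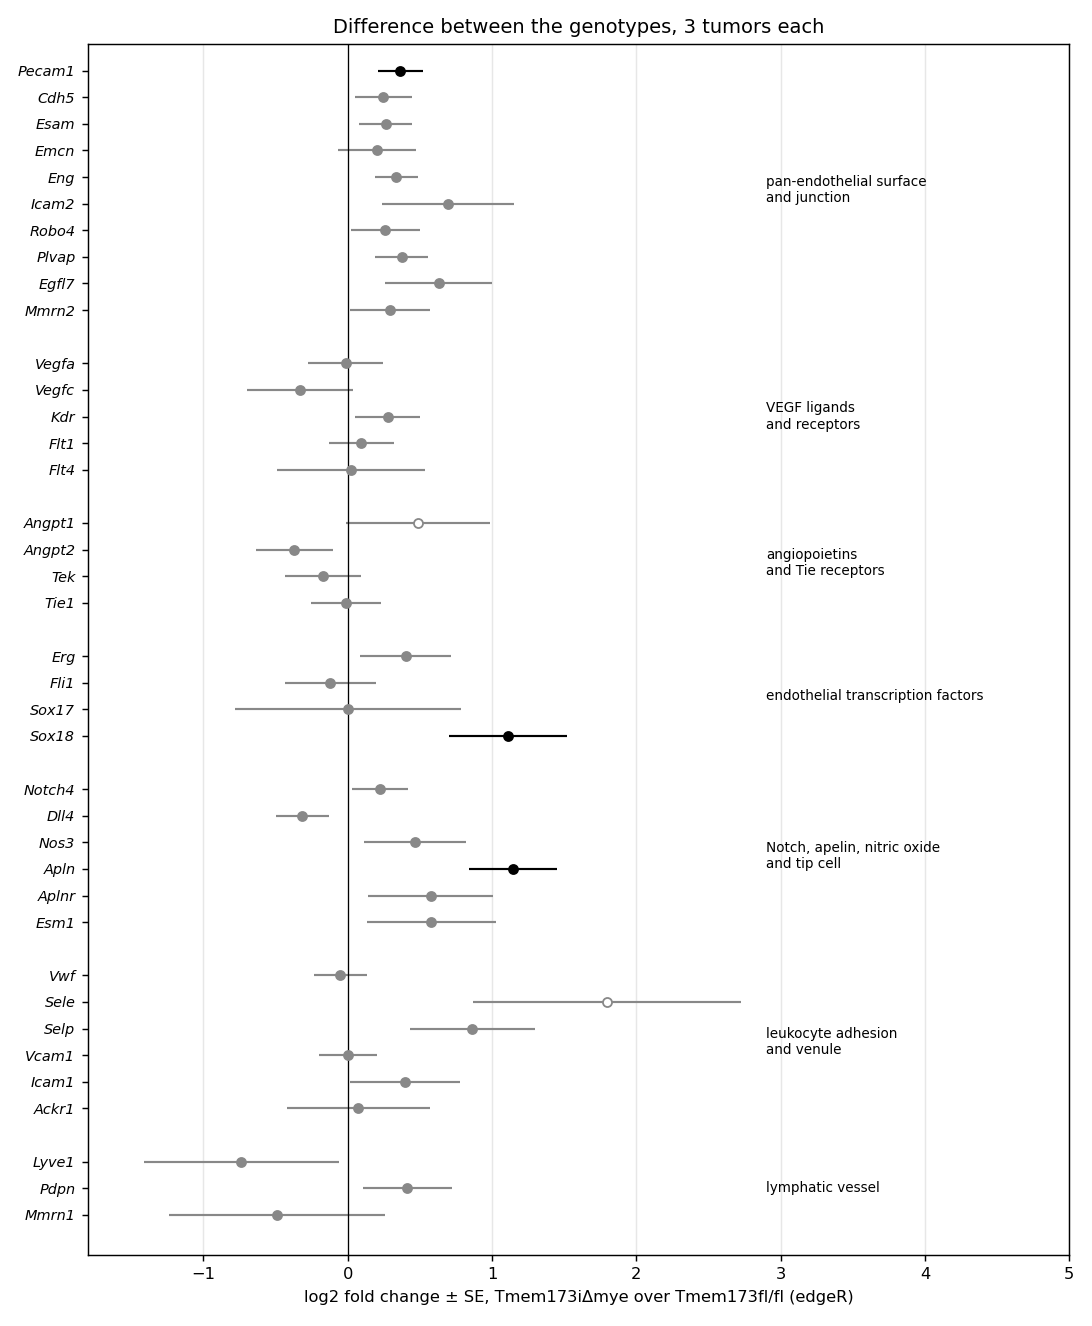
Log2 fold change of each of the 38 genes for Tmem173iΔmye over Tmem173fl/fl tumors on the horizontal axis, from edgeR on 3 tumors per group, with bars of 1 SE. Black points have an unadjusted p under 0.05 (Pecam1, Sox18 and Apln), and open points are Angpt1 and Sele, which were fitted without the filter; the 10 genes at the top all lie right of 0.

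Among the tip cell, Notch, apelin and nitric oxide genes, Apln had the smallest p of all members. Apln encodes apelin, a peptide secreted by tip cells, and lies on the minus strand of chromosome X from 48025146 to 48034853. Its counts were low, at 26, 31 and 32 in Tmem173fl/fl and 55, 82 and 62 in Tmem173iΔmye tumors, or 1.69, 2.07 and 1.92 CPM against 3.47, 5.17 and 3.95 CPM. Every Tmem173iΔmye value was above every Tmem173fl/fl value, and the spread within the control group was narrow. The means of 1.89 ± 0.190 (SD, n = 3) and 4.20 ± 0.874 (SD, n = 3) gave a log2 fold change of 1.15 (edgeR, SE 0.30 and adjusted p = 0.742). The unadjusted p stayed under 0.05 in all 15 other ways of fitting in which Apln was tested, with log2 fold changes from 0.54 on the log2(FPKM + 1) scale to 1.26. Its mean of 0.961 FPKM is under the stricter filter of 1 FPKM, so it was not tested there. Apln is X-linked, and with a term for Y-linked reads the log2 fold change was 1.16 and remained past an unadjusted 0.05.

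The promoter of Apln is shown because this gene had the smallest p of the members. The window, chrX:48034804-48035103 of GRCm38.p6 on the minus strand, comes from RefSeq and holds 250 bases before the annotated start and 50 from it, with the first transcribed base in capitals.
Apln: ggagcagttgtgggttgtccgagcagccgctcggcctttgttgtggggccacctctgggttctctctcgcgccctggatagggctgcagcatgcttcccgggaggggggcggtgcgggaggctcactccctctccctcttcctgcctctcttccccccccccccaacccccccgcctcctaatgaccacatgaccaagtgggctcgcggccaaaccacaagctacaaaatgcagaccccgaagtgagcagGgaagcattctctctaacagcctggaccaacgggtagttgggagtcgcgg
That base, at position 48034853, is also the upper end of the gene in the deposited table. The window is 64% G or C. On both strands it was searched for GGG and TTTCC with any 2 bases between them (NF-kB), CCGGAA (ETS factors), TTTC and TTTC with any 2 bases between them (interferon-stimulated response element) and ACGTGC (hypoxia-inducible factors), and 0 matches were found. In that order the letters occur in 1.63%, 14.9%, 3.44% and 5.91% of all 32851 promoter windows of this length. The table matched 22 of the 38 members with 27 windows, and Pecam1 and Sox18 were not among them. Of these windows, 2 held CCGGAA (Icam1 and Kdr), 2 held the interferon element (Mmrn1 and Vegfa), 1 held ACGTGC (Pdpn) and 0 held the NF-kB letters.

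Aplnr, the receptor of apelin, had 8.13, 7.33 and 2.28 CPM in the Tmem173fl/fl tumors and 8.78, 9.33 and 8.28 CPM in the Tmem173iΔmye tumors. The groups did not overlap, but the separation was 8.13 against 8.28 CPM and the low value of Tmem173fl/fl replicate 3 made most of the difference, which was 0.57 (edgeR, SE 0.43 and adjusted p = 0.766) on the log2 scale and 0.19 without that tumor. Esm1, a secreted proteoglycan of tip cells, had 3.19, 2.93 and 1.68 CPM against 2.08, 3.72 and 5.86 CPM, with overlap.

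The Notch ligand Dll4 went the other way from Apln in its mean. It had 46.2, 32.9 and 46.2 CPM in Tmem173fl/fl and 38.01, 32.8 and 30.0 CPM in Tmem173iΔmye tumors, a log2 fold change of -0.31 (edgeR, SE 0.18 and adjusted p = 0.742), and the groups overlapped. Notch4, a Notch receptor largely restricted to endothelium, had 45.6, 37.8 and 40.5 CPM against 60.9, 37.7 and 45.8 CPM, a log2 fold change of 0.22 (edgeR, SE 0.19 and adjusted p = 0.787). Nos3, the endothelial nitric oxide synthase, had 3.25, 2.87 and 4.26 CPM against 5.93, 2.898 and 5.54 CPM. Exons of Nos3 share 294 bases with Atg9b on the other strand, which had 12344 counts over the 6 tumors against 391 for Nos3, and exons of Dll4 share 214 bases with Gm14207 on the other strand. Exons of Egfl7 share 64 bases with Agpat2 on the other strand, which had 10573 counts against 1329 for Egfl7. Those of Eng share 61 bases with Fpgs on the other strand, which had 2510 counts against 3201 for Eng. These stretches are 1.79% and 1.51% of the exon bases of Egfl7 and Eng. The library kit named in the labels does not mark strand, so reads in such shared stretches cannot be assigned to either gene.

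Of the transcription factors, Sox18 had the largest difference in means. Sox18, Sox17 and Sox7 form the SOXF family, which sets endothelial and arterial or lymphatic identity. Sox18 lies on the minus strand of chromosome 2, from 181669836 to 181671640, and had 15.4, 9.601 and 17.7 CPM in Tmem173fl/fl and 14.3, 43.4 and 34.5 CPM in Tmem173iΔmye tumors. Replicates 2 and 3 of the Tmem173iΔmye tumors were high, while replicate 1 lay within the range of the controls. The log2 fold change was 1.11 (edgeR, SE 0.41 and adjusted p = 0.742). Limma on log2(FPKM + 1), on log2(FPKM + 0.1) and with voom did not pass an unadjusted 0.05, and neither did leaving out Tmem173fl/fl replicate 1 or 2, or Tmem173iΔmye replicate 2 or 3. Without Tmem173iΔmye replicate 2 the log2 fold change was 0.78, the smallest edgeR value of these.

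The low counts of Sox7, which is not a member, were 20, 29 and 34 against 39, 54 and 59, without overlap, and gave a log2 fold change of 0.86 (edgeR, SE 0.34 and adjusted p = 0.742). Sox17, by contrast, had 4.36, 17.5 and 51.0 CPM in Tmem173fl/fl and 11.7, 41.6 and 19.7 CPM in Tmem173iΔmye tumors, a log2 fold change of 0.0025 (SE 0.79). Its highest tumor exceeded its lowest 11.7-fold, a ratio larger than that of 94.0% of the genes tested, and both extremes were Tmem173fl/fl tumors.

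Erg, an ETS factor required for endothelial identity, had 2.08, 2.73 and 2.70 CPM in Tmem173fl/fl and 4.23, 2.84 and 2.86 CPM in Tmem173iΔmye tumors. The groups did not overlap, with 2.73 and 2.84 CPM as the nearest values, and the log2 fold change was 0.40 (edgeR, SE 0.32 and adjusted p = 0.770). Fli1, an ETS factor shared with blood cells, had 8.13, 5.47 and 4.02 CPM against 5.24, 6.18 and 4.77 CPM, with overlap and a log2 fold change of -0.12 (SE 0.31).

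VEGF ligands and receptors showed no difference larger than the spread between tumors. Vegfa, the main angiogenic ligand, had 91.2, 56.0 and 120 CPM in Tmem173fl/fl and 100, 78.3 and 86.3 CPM in Tmem173iΔmye tumors, a log2 fold change of -0.014 (edgeR, SE 0.26 and adjusted p = 0.991). The control tumors alone spanned from the lowest to the highest value. Vegfc, the lymphangiogenic ligand, had 2.99, 3.53 and 6.66 CPM against 4.10, 3.34 and 3.06 CPM. Kdr, the chief signalling receptor of VEGF-A, had 13.3, 16.9 and 10.4 CPM against 17.6, 13.9 and 17.6 CPM, a log2 fold change of 0.28 (edgeR, SE 0.22 and adjusted p = 0.771). Flt1, which also binds VEGF-A and limits its action, had 14.4, 20.002 and 19.3 CPM against 17.7, 15.5 and 24.1 CPM. For all of these genes the groups overlapped.

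Flt4, the receptor of VEGF-C and a marker of lymphatic endothelium, had 3.45, 5.33 and 11.8 CPM in Tmem173fl/fl and 10.04, 3.84 and 7.07 CPM in Tmem173iΔmye tumors. Its highest value was that of Tmem173fl/fl replicate 3. Lyve1, a hyaluronan receptor of lymphatic endothelium and of some macrophages, had 4.55, 5.0 and 23.5 CPM against 9.597, 3.40 and 6.88 CPM. Mmrn1, a secreted protein of lymphatic endothelium and platelets, had 3.51, 2.80 and 15.005 CPM against 6.82, 1.58 and 6.81 CPM. In both, Tmem173fl/fl replicate 3 was the highest and Tmem173iΔmye replicate 2 the lowest of the 6 tumors.

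The log2 fold change was -0.74 (SE 0.68) for Lyve1 and -0.49 (SE 0.75) for Mmrn1, and without Tmem173fl/fl replicate 3 these were 0.48 and 0.69, so that a single tumor set the direction. Pdpn, found on lymphatic endothelium and on fibroblasts, followed another order, with 11.6, 5.87 and 12.8 CPM against 14.1, 15.1 and 11.3 CPM. Of the 7 further lymphatic genes 5 were tested, 3 of them above 0 and 2 below with a median of 0.10, and 0 had an unadjusted p under 0.05. These lymphatic genes did not share an order of tumors. Of the 7, Reln was highest in Tmem173fl/fl replicate 3, with 218 counts against 24 to 49 elsewhere, while Ccl21a, with 3 counts, and Itga9, with 13.9 CPM, were lowest in that tumor. Prox1, the lymphatic regulator, had 427, 604 and 335 CPM against 218, 424 and 465 CPM, and its mean of 48.8 FPKM exceeded the 3.01 FPKM of Lyve1. Intestinal tumor epithelium can also express Prox1.

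**Figure D3:**
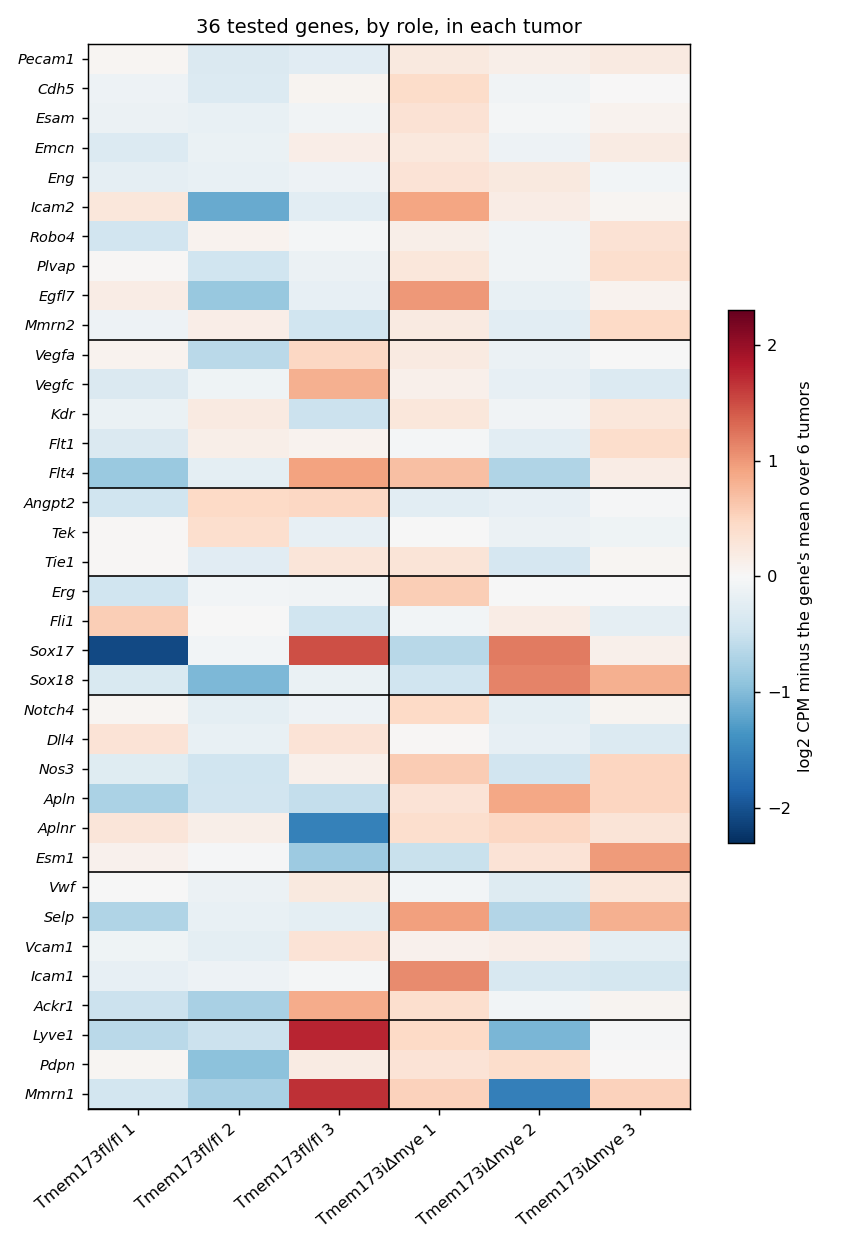
Level of the 36 tested genes (rows, in blocks by role) in each of the 6 tumors (columns), as log2 CPM minus the mean of the gene over the tumors, red above and blue below. Tmem173fl/fl replicate 3 stands out in Lyve1 and Mmrn1, and Tmem173iΔmye replicate 1 in Icam2, Egfl7 and Icam1. Replicates 1 and 3 of Tmem173iΔmye stand out in Selp, and replicates 2 and 3 in Sox18.

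The angiopoietins and Tie receptors had log2 fold changes below 0 in all 3 tested genes, from -0.37 to -0.015, and 0 passed an unadjusted p of 0.05. Angpt2, released by endothelium to loosen vessels, had 10.01, 18.8 and 19.0 CPM in Tmem173fl/fl and 11.6, 12.0 and 13.4 CPM in Tmem173iΔmye tumors. Tmem173fl/fl replicate 1 was the lowest tumor for Angpt2 and the other two controls the highest, and the log2 fold change was -0.37 (edgeR, SE 0.27 and adjusted p = 0.757). Without that tumor it was -0.62 and passed an unadjusted 0.05. Tek, the receptor of both angiopoietins, had 4.49, 5.80 and 3.90 CPM against 4.42, 4.03 and 4.14 CPM, and Tie1, its partner receptor, had 12.5, 10.1 and 14.8 CPM against 15.03, 9.39 and 12.6 CPM. Angpt1, the stabilising ligand made by mural cells, was under the filter with 15, 17 and 15 counts against 32, 12 and 22 counts.

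To set members against vessel content, each count was divided by the mean count of Pecam1 and Cdh5 in the same tumor and compared on the log2 scale in 34 members. Because Pecam1 and Cdh5 were themselves higher in Tmem173iΔmye tumors, this ratio lay wholly lower in that group for 26% of all genes and wholly higher for 0.895%. Of the 34 members, 1 was wholly higher, Apln, and 3 were wholly lower, Dll4, Tek and Tie1. These counts were not tested against those shares. The log2 ratio of Apln was -3.69, -3.10 and -3.41 in Tmem173fl/fl and -2.99, -2.17 and -2.63 in Tmem173iΔmye tumors, a difference of 0.80 (exact two-sided permutation p = 0.1, the smallest that 3 tumors against 3 allow). That of Dll4 was 1.06, 0.86 and 1.16 against 0.45, 0.49 and 0.28, a difference of -0.62 (exact permutation p = 0.1). The mean of Dll4, 9.72 FPKM, was above the 4.26 FPKM of Pecam1 and the 4.47 FPKM of Cdh5. Bulk tumor RNA does not tell which cells made the Dll4 reads, so its ratio may not be that of vessel cells alone. The difference was -0.47 for Tek and -0.34 for Tie1, each at the same exact permutation p of 0.1. Any gene whose groups are wholly apart has this p, so it adds nothing to the separation itself. With the mean of Cdh5, Esam, Tie1 and Egfl7 as the reference, Dll4 stayed apart with a difference of -0.57, while Apln, at 0.85 (exact permutation p = 0.2), and Tek, at -0.42 (exact permutation p = 0.4), overlapped. Tie1 is part of that reference and was not compared. The 2 references share Cdh5, and no share of all genes is given for the second.

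**Figure D4:**
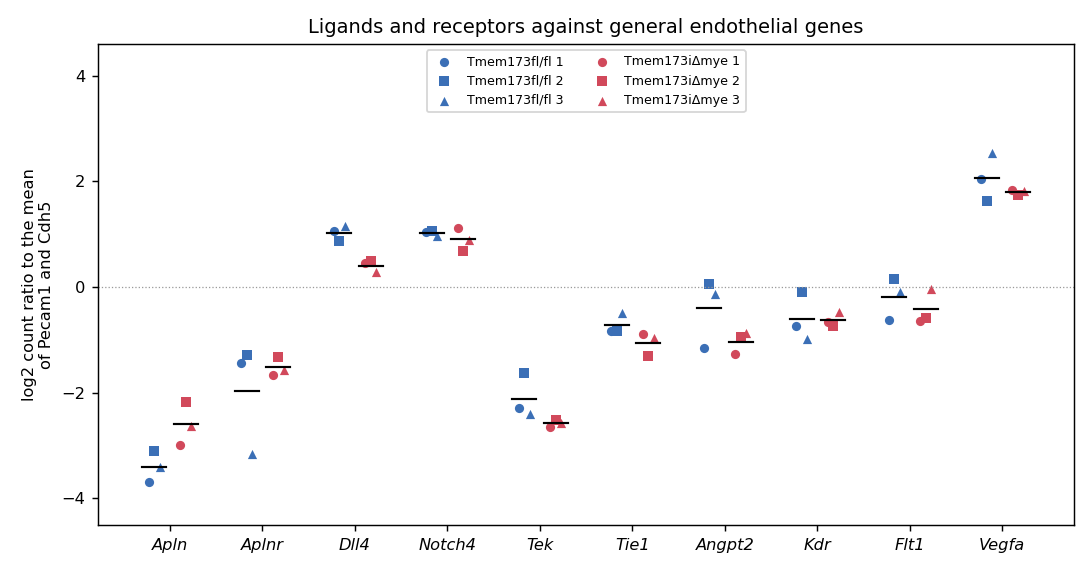
Log2 of the ratio of a gene's count to the mean count of Pecam1 and Cdh5 in the same tumor (vertical axis) for 10 ligands and receptors. Points are tumors, blue for Tmem173fl/fl and red for Tmem173iΔmye, and lines are group means; the groups do not overlap for Apln, where Tmem173iΔmye is higher, nor for Dll4, Tek and Tie1, where it is lower.

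Among the 6 genes of venules and leukocyte adhesion, 5 were tested and 0 had an unadjusted p under 0.05. Icam1, an integrin ligand that endothelium, leukocytes and epithelium display in inflammation, had 45.7, 47.9 and 50.5 CPM in Tmem173fl/fl and 110, 40.2 and 39.3 CPM in Tmem173iΔmye tumors. Tmem173iΔmye replicate 1 was far above all others and the remaining 2 tumors of its group were below every control. The log2 fold change was 0.40 (edgeR, SE 0.38 and adjusted p = 0.805), and without replicate 1 it was -0.28.

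E-selectin, encoded by Sele and under the filter, had 0, 6 and 2 counts against 18, 5 and 6 counts, the 18 again in Tmem173iΔmye replicate 1. P-selectin, encoded by Selp and stored in endothelium and platelets, had 2.80, 4.0 and 3.84 CPM against 8.65, 2.84 and 7.89 CPM, with replicates 1 and 3 of Tmem173iΔmye high and a log2 fold change of 0.86 (edgeR, SE 0.43 and adjusted p = 0.742). Without Tmem173iΔmye replicate 2 the log2 fold change of Selp was 1.22 and passed an unadjusted 0.05. Vcam1, a ligand for lymphocyte and monocyte integrins, was level between the groups in its mean, with 18.9, 17.3 and 25.1 CPM against 21.7, 22.4 and 17.3 CPM and a log2 fold change of 0.0025 (SE 0.20). Ackr1, a chemokine-binding receptor of venules, had 16, 13 and 44 counts against 30, 22 and 24 counts, and its exons share 361 bases with Cadm3 on the same strand. The clotting factor carrier Vwf had 31.5, 29.0 and 37.0 CPM against 30.3, 25.9 and 38.01 CPM.

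Tmem173iΔmye replicate 1 also stood apart in other lists. The summed level of 15 interferon response genes was 216 to 414 CPM in Tmem173fl/fl tumors and 1741, 426 and 560 CPM in replicates 1, 2 and 3 of Tmem173iΔmye, with all 15 genes above 0 and 14 at an unadjusted p under 0.05. Of all genes, 6.14% passed in that fit. Without Tmem173iΔmye replicate 1 all 15 stayed above 0, but the median log2 fold change went from 1.54 to 0.67. There 3 passed, as did 3.5% of all genes. The number that passed was 6 without Tmem173fl/fl replicate 2 and 5 without replicate 3, where 6.5% and 3.26% of all genes passed. It was 8 with limma on log2(FPKM + 1) or log2(FPKM + 0.1), where 5.69% and 5.6% of all genes passed. With a term for Y-linked reads or with voom it was 9, where 3.37% and 5.67% of all genes passed. The summed level of 7 neutrophil genes was 100 to 234 CPM against 411, 207 and 134 CPM, and that of 9 NF-kB response genes, among them Il1b, 310 to 344 CPM against 571, 358 and 261 CPM. The part of these cells and responses in the values of Icam1, Sele and Egfl7 was not tested. The 7 platelet markers were uneven. Pf4 had 53 to 194 counts per tumor and a mean of 11.1 FPKM, above the 4.26 FPKM of Pecam1. Ppbp had 459 counts in Tmem173fl/fl replicate 2 against 47 to 73 elsewhere, and that tumor made most of its mean of 7.57 FPKM. Gp1bb was at 0 in every tumor and Gp9 and Treml1 had 3 counts or fewer, and the summed level of the list was 16.5 to 37.4 CPM in Tmem173fl/fl and 14.3 to 25.0 CPM in Tmem173iΔmye tumors.

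Cells that surround vessels were followed with lists of their own. Mural cell genes (10 genes, of which 8 were tested) had a median log2 fold change of 0.12 and a summed level of 141 to 161 CPM in Tmem173fl/fl and 153 to 176 CPM in Tmem173iΔmye tumors. In this list Mcam, an adhesion molecule that endothelium shares, had 22.9, 20.4 and 21.4 CPM against 42.6, 23.4 and 28.1 CPM (adjusted p = 0.742 from edgeR), and Notch3, the Notch receptor of mural cells, had 14.2, 19.2 and 13.5 CPM against 10.8, 9.83 and 9.23 CPM, a log2 fold change of -0.65 (edgeR, SE 0.20 and adjusted p = 0.742). Both separated the groups, in opposite directions, and without Tmem173iΔmye replicate 3 neither passed an unadjusted 0.05.

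The 7 smooth muscle genes had a median of -0.51 and 301 to 424 CPM against 215 to 380 CPM, with 6 of 7 below 0 and Des at an unadjusted p under 0.05. Without Tmem173iΔmye replicate 3 all 7 were below 0, 5 passed and the median was -0.90, where 5.63% of all genes passed. By contrast, 0 passed without Tmem173fl/fl replicate 1 or 3 or Tmem173iΔmye replicate 1 or 2. In that order, 10.1%, 3.26%, 3.5% and 4.83% of all genes passed there. The median was 0.26 for 8 fibroblast genes, 7 of them above 0. Among these, Dpt had a log2 fold change of 1.08 (edgeR, SE 0.20 and adjusted p = 0.742). For 10 macrophage genes the median was 0.26 with 7 above 0, and for 10 epithelial genes 0.084 with 9 above 0. Their part in the values of the vessel genes was not tested.

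Other genes of vessel growth went both ways. Of 31 further angiogenesis signalling genes, 26 were tested, 14 were above 0 and 12 below with a median of 0.027, and 5 had an unadjusted p under 0.05, 4 higher and 1 lower, where 6.14% of all genes passed in either direction. In 7 of the 26 the groups did not overlap, 5 higher and 2 lower, against 12.5% of all genes, 6.03% higher and 6.47% lower. When a tumor was left out, 2 to 7 passed. The fewest came without Tmem173iΔmye replicate 2, where 4.83% of all genes passed, and the most without Tmem173fl/fl replicate 1, where 10.1% did. Thbs2, which encodes thrombospondin-2, had 155, 259 and 174 CPM in Tmem173fl/fl and 122, 58.9 and 98.5 CPM in Tmem173iΔmye tumors, a log2 fold change of -1.08 (edgeR, SE 0.30 and adjusted p = 0.742). Thbs1, encoding the related thrombospondin-1, had 239, 197 and 121 CPM against 248, 362 and 368 CPM, a log2 fold change of 0.81 (edgeR, SE 0.27 and adjusted p = 0.742). The 2 thrombospondins thus separated the groups in opposite directions.

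Hey1, a transcriptional target of Notch, had 4.94, 6.13 and 4.74 CPM against 7.26, 9.51 and 10.5 CPM, a log2 fold change of 0.79 (edgeR, SE 0.25 and adjusted p = 0.742). On the same scale the Notch receptor Notch1 was at -0.35 (SE 0.17) and the ligands Dll1, Jag1 and Jag2 at -0.26, -0.11 and -0.0046, with overlap in each. Pgf, a ligand of Flt1, and Angptl4, a lipase inhibitor induced in hypoxia and fasting, make up the 5 and were named after their values were seen, with log2 fold changes of 0.83 (SE 0.32) and 0.87 (SE 0.32). Of 12 genes of capillaries, arteries and venules, 10 were tested, 5 lay on each side of 0 and 0 had an unadjusted p under 0.05. Hypoxia, which can raise Vegfa, Apln and Angptl4, was followed with 10 response genes, of which 3 were above 0 and 7 below with a median of -0.16. Ndrg1 had an unadjusted p under 0.05 with a log2 fold change of -0.93. Without Tmem173fl/fl replicate 3 the median of the list was -0.018. The part of hypoxia in the values of Vegfa, Apln and Angptl4 was not tested.

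**Figure D5:**
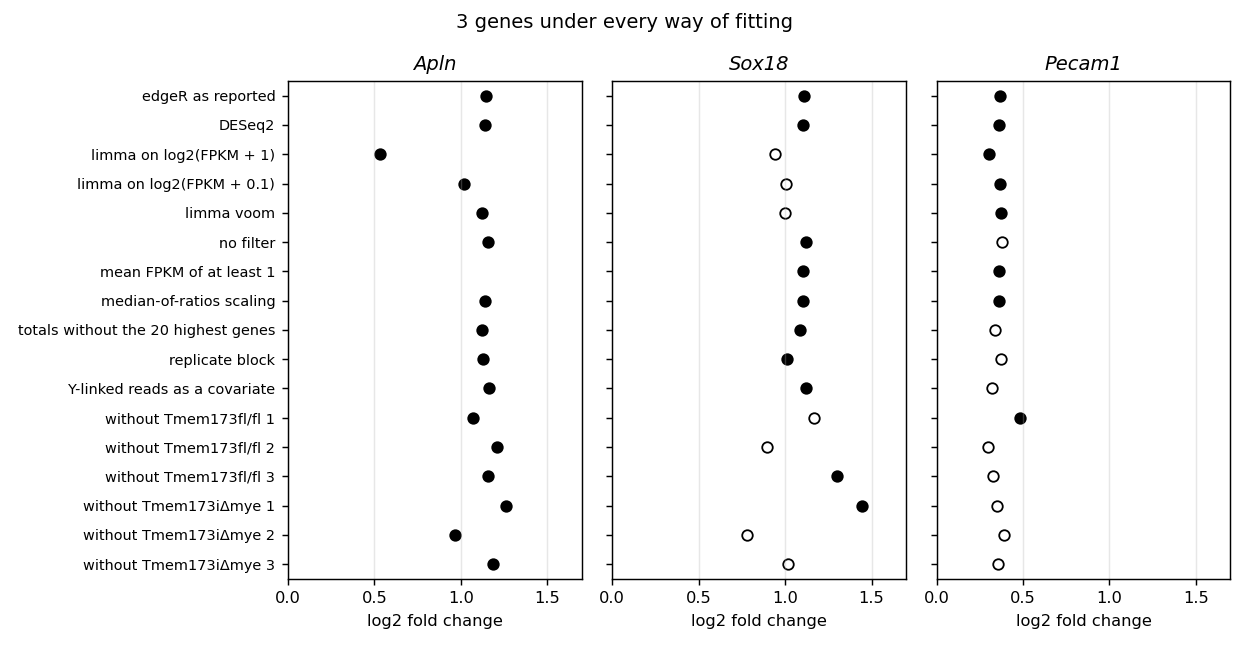
Log2 fold change of the 3 members with an unadjusted p under 0.05 (horizontal axis) in each way of fitting (rows); filled points have an unadjusted p under 0.05. Apln stays filled in every row where it was tested, while Sox18 and Pecam1 lose this in 7 and 9 rows.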

How the data were processed

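RNA of 6 tumors was sequenced as poly(A) libraries. According to the submitters' processing notes, the authors used CASAVA 1.8, fastp, HISAT2 2.0.5 and featureCounts 1.5.0-p3 with GRCm38. The table the authors deposited gives unnormalized counts and FPKM values for each gene and tumor. The same table holds the authors' own DESeq2 1.20.0 comparison (group means of normalized signal, log2 fold changes and p-values), which was not used here. Whether reads were counted by strand, or dropped where genes overlap, is not given in the sources used here.

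The quasi-likelihood test of edgeR 4.0.16 in R 4.3.3 (TMM, genotype as the only term) was run on counts of genes averaging 0.5 FPKM or more, with Benjamini-Hochberg adjustment over all of them. SE was taken from the fold change and its F statistic. Members under the filter were fitted without it. Ratios used 0.5 added counts and an exact permutation test (scipy 1.17.1). The steps were tested on simulated counts. Alternatives were DESeq2 1.42.0, limma 3.58.1, other filters, scalings and covariates, and leaving out each tumor.

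The members and gene lists were chosen with earlier results of these data known. Named are all members by role and, of each other list, at most 3 genes with an unadjusted p under 0.05, apart from those said to be named after their values were seen. Defining markers of cell types and, after their values were seen, other platelet, lymphatic and Notch genes are named as well. Nothing says that same-numbered tumors were processed together. Replicates are tumors of separate titles, taken here to come from separate mice, and p-values measure the spread between them. Coordinates and strands of all 38 genes equal those of GENCODE vM21, in which exons of 10 members overlap another gene. The symbol Ccl21a has 2 identifiers, and that with more counts was used.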

Additional observations from a re-analysis of the deposited data

How the results depend on the processing

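Depth limits the low members: 10 of the 38, among them Apln, Ackr1, Icam2, Erg and Sele, had under 100 counts in every tumor, and a mean difference in them rests on few reads. The count of genes with an adjusted p under 0.05 was 0 with edgeR, 27 with DESeq2 and 6 without the filter, and 0 to 1 when a tumor was left out. The 1008 genes at an unadjusted p under 0.05 became 1741 without the filter, 553 with Y-linked reads as a covariate and 535 to 1665 when a tumor was left out. The 349 genes past both limits became 872, 211 and 218 to 636 in turn, and 136 with limma on log2(FPKM + 1). The 3 members at an unadjusted p under 0.05 were 2 to 4 in every alternative, in which 3.26% to 10.1% of all genes passed. The median log2 fold change over all members tested was above 0 in each, from 0.15 without Tmem173iΔmye replicate 1 to 0.35 without Tmem173fl/fl replicate 3. The 6 members without overlap were 7 to 14 when a tumor was left out, where a smaller group separates more easily. The most, 14, came without Tmem173iΔmye replicate 2. No share of all genes is given for these smaller groups, so the rise is not a result about the members. The 4 members apart in the ratio to Pecam1 and Cdh5 were 1 with the other reference genes, of which Tie1 is part and so was not compared. They were 5 to 10 when a tumor was left out, again without a share of all genes beside them. The 6 other vessel genes at an unadjusted p under 0.05 were 3 without Tmem173iΔmye replicate 2, where 4.83% of all genes passed. Their number was 12 without Tmem173fl/fl replicate 1, where 10.1% of all genes passed. Leaving out a tumor gave log2 fold changes from -0.28 to 0.65 for Icam1, negative without Tmem173iΔmye replicate 1, and from -1.11 to 0.48 for Lyve1, positive without Tmem173fl/fl replicate 3. Another 42 sign changes were of members whose log2 fold change was smaller than its SE. The cause of these shifts was not tested.

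Whether replicate numbers pair the tumors is not stated, and 3 tumors per group cannot settle it. After group means were subtracted, tumors sharing a number correlated across genes at 0.31, 0.0085 and 0.15. Tumors of unlike number correlated at -0.37 to 0.22, and not every tumor correlated best with its own number. With the replicate block, 4 members (Apln, Sox18, Egfl7 and Plvap) and 10 other vessel genes had an unadjusted p under 0.05. The share of all genes that passed was then 9.16%, against 6.14% without the block.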
